A study of Mus musculus with 2 samples.

Results

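Stab2-positive cells are the endothelial cells of fetal bone marrow that carry mRNA of Stab2, a receptor of sinusoids. Here they were chosen by their UMI counts in 2 single-cell libraries made from E18.5 mouse femurs, where a UMI marks a single captured mRNA molecule. A cell was kept if it held over 200 but under 5000 genes, with mitochondrial UMIs below 30% of its total. It entered the endothelial gate with at least 2 summed UMIs of Cdh5, Pecam1 and Kdr, and counted as Stab2-positive with at least 1 UMI of Stab2 and 0 of Gja4, a connexin gene of arterial endothelium. The rule found 71 of 12356 kept cells, namely 47 of 5736 in the wild-type (WT) library and 24 of 6620 in the library of Wls iΔBmx embryos. They were compared with the cells of the same gate that had 0 UMIs of both Stab2 and Gja4 (476 and 380 cells, called Stab2-0 cells below), and with each other across the libraries.

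Both libraries came from embryos at E18.5, shortly before birth. The paper used C57BL/6 mice for wild-type bone marrow and kept its mutant lines in a predominantly C57BL/6 background. Femurs were dissected, crushed and digested with collagenase, and the lineage-committed blood cells were removed with magnetic beads. Each library thus held blood progenitors together with other cells of the femur, cartilage cells among them. One library is labelled WT and the other Bmx-CreER Wls. In the second, a tamoxifen-inducible Cre recombinase under the Bmx promoter, which is active in arterial endothelial cells (AECs), removes the floxed Wls gene. Wls encodes the carrier that every Wnt ligand needs for secretion, and the dams of such embryos received 2 mg of tamoxifen once a day. The number of embryos pooled in each library, and whether the WT embryos were exposed to tamoxifen, are not given in the sources used here. There was 1 library per genotype, so no test between genotypes was possible. Every interval below is a 95% interval that covers counting error only, and neither the spread between cells nor that between embryos.

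Sinusoids are the wide, thin-walled venous capillaries of bone marrow, liver and spleen. Their endothelium clears macromolecules from the blood with scavenger receptors, among them the hyaluronan receptor stabilin-2 (Stab2), its relative stabilin-1 (Stab1) and the mannose receptor (Mrc1). In bone marrow it also carries adhesion molecules such as Vcam1, through which blood cells home to and leave the marrow. Arterial endothelium is distinguished by the connexins Gja4 and Gja5, the kinase Bmx and the chemokine Cxcl12.

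The Stab2-positive cells were slightly deeper than the cells they were compared with. They held a median of 3237 UMIs in WT and 3922.5 in Wls iΔBmx, against 3025 and 3310.5 in Stab2-0 cells, and their median mitochondrial share was 5.24% and 5.02%, against 6.30% and 5.46%. The 2 libraries held 22708005 and 24704991 UMIs in 5998 and 6825 barcodes, and 49 barcodes occurred in both, none of them of a Stab2-positive cell. Cells of the embryos differed in sex between the libraries. Of the Stab2-positive cells, 21 in WT had UMIs of Y-linked genes without Xist and 4 had Xist without Y-linked genes, while in Wls iΔBmx these numbers were 8 and 6, and 2 cells had both. Chondrocyte-like cells, with 10 or more UMIs of Col2a1, Acan and Matn1 and none of the endothelial genes, made up 44.8% of WT and 65.2% of Wls iΔBmx cells. The part of sex and of the share of cartilage cells in the results was not tested.

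Wls itself was sparse in sinusoidal cells. The Stab2-positive cells held 14 UMIs of Wls in WT, a level of 76.7 CPM (UMIs of the gene per 1000000 UMIs of the cell group, 95% interval 41.9 to 129), and 3 UMIs in Wls iΔBmx, a level of 26.7 (5.5 to 77.9). The ratio of Wls iΔBmx to WT was 0.348 with an interval of 0.0641 to 1.25, so a difference was not detectable at this depth. In Stab2-0 cells the same ratio was 0.669 (0.457 to 0.969). In Gja4-positive gate cells, where the Cre is meant to act, Wls stood at 20 UMIs in WT and 3 in Wls iΔBmx, a ratio of 0.166 (0.0316 to 0.56). The kit counts the 3′ ends of transcripts, which may lie outside the deleted exon, so these levels are no check of the deletion itself. Bmx had 0 UMIs in the Stab2-positive cells of both libraries, against 31 and 71 UMIs in the Gja4-positive cells.

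The promoters of the stabilins and the mannose receptor are shown because Stab2 chose the cells and the other 2 are scavenger receptors that stood higher in them. The windows run from 250 bases before to 50 bases after the annotated transcription start, 5′ to 3′ on the strand of the gene, as RefSeq gives them on GRCm38.p6. The Stab2 window lies at chr10:87007893-87008192 (minus strand), that of Stab1 at chr14:31168592-31168891 (minus strand) and that of Mrc1 at chr2:14229164-14229463 (plus strand). The annotated genes span chr10:86841198-87008025 for Stab2, chr14:31139013-31168641 for Stab1 and chr2:14229392-14332057 for Mrc1 (GENCODE M21 on GRCm38). Capitals mark the matches to 3 motifs searched on both strands, AGATAA (bound by GATA factors), CGGAAG (ETS factors, CTTCCG on the other strand) and TGCTGA (the core of the MAF recognition element).
Stab2: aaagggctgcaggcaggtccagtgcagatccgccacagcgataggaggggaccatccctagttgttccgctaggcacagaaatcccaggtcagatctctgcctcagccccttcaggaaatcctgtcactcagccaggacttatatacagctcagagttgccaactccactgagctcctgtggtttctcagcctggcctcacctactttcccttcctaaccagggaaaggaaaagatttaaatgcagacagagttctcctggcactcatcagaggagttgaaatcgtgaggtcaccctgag
Stab1: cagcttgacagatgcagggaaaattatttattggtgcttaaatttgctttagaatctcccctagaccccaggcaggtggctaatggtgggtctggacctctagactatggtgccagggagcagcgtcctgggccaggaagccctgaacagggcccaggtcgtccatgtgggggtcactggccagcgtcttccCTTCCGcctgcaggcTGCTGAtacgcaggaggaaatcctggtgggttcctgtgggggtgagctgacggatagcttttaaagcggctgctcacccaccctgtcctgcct
Mrc1: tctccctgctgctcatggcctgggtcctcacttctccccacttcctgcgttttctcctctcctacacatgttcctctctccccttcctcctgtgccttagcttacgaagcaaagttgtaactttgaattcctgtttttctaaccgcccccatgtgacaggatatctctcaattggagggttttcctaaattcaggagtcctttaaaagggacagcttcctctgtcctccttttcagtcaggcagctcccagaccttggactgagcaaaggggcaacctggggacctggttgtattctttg
Only the Stab1 window held any of the 3, an ETS match 57 bases and a MAF core 42 bases before the start. Among all 32851 promoters of the table, 11.2% held the GATA letters, 16.9% the ETS letters and 19.5% the MAF letters. Of the 15 genes that stood highest in Stab2-positive cells (below), 10 had a window, and 2 of these held the GATA letters (Slc39a8 and Il13ra2), 2 the MAF letters (Abcc9 and Cd55) and 0 the ETS letters. The matches describe these letters only, and the last 50 bases of each window lie inside the transcribed gene.

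Stab2 chose the cells, so its values are a description. It had 96 UMIs in 47 WT cells and 37 in 24 Wls iΔBmx cells, and 24 and 13 of the cells held exactly 1, the smallest number that the rule admits. Outside the gate, 2 kept WT cells held 1 Stab2 UMI each with 0 of Cdh5, Pecam1 and Kdr, and no kept Wls iΔBmx cell outside the gate held any. The Stab2-positive cells sat well inside the endothelial limit, with a lowest sum of 7 and 8 UMIs of Cdh5, Pecam1 and Kdr and a median of 17 and 19. None of the 96 and 81 Gja4-positive gate cells held a Stab2 UMI, which allows a share of up to 3.13% and 3.70% of cells with one, reading a count of 0 here and below as at most 3. Stab2-positive cells made up 7.59% of the gate in WT (exact binomial interval 5.63 to 9.97%) and 4.95% in Wls iΔBmx (3.20 to 7.27%).

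The other markers of sinusoidal endothelium were high in the same cells. Stab1 stood at 997 CPM in WT and 835 in Wls iΔBmx, against 223 and 215 in Stab2-0 cells, with ratios of 4.47 (3.72 to 5.35) in WT and 3.88 (3.05 to 4.9) in Wls iΔBmx. Vcam1, the receptor that blood cells hold through their VLA-4 integrin, stood at 559 CPM in WT and 436 in Wls iΔBmx, against 38.8 and 27 in Stab2-0 cells, and Mrc1 at 301 CPM in WT and 169 in Wls iΔBmx, against 16.1 and 11.2 in Stab2-0 cells. Both were more than 14-fold higher in each library, with ratios of 14.4 (10.4 to 19.9) in WT and 16.2 (10.4 to 25.1) in Wls iΔBmx for Vcam1 and 18.7 (11.6 to 30.8) in WT and 15.1 (7.43 to 30.9) in Wls iΔBmx for Mrc1. Of the 47 WT cells 46, and all 24 Wls iΔBmx cells, held a UMI of at least 1 of Stab1, Vcam1 and Mrc1, and 17 and 10 held all 3. Among Stab2-0 cells 9 of 476 and 5 of 380 held all 3.

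**Figure D1:**
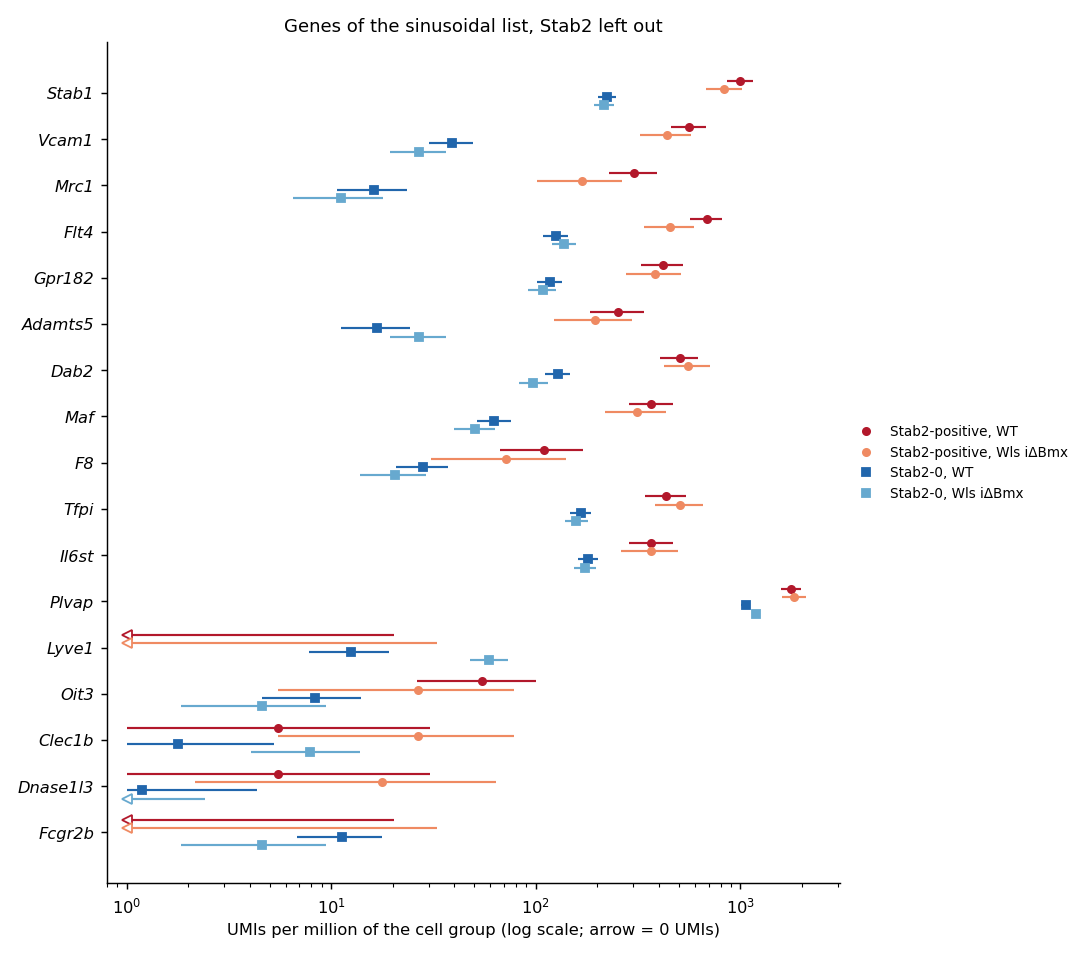
Levels of sinusoidal genes in CPM of the cell group (log scale) in Stab2-positive cells (circles, red) and Stab2-0 cells (squares, blue) of the 2 libraries, with bars for 95% Poisson intervals and open arrows for 0 UMIs. The circles lie to the right of the squares from Stab1 to Plvap, whereas Lyve1 and Fcgr2b had no UMI in Stab2-positive cells.

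A gene was called higher or lower where its level differed at least 2-fold in the same direction in both libraries, among genes with at least 20 UMIs in Stab2-positive and Stab2-0 cells together in each library. This is a limit on size and not a test. Of 8066 genes, 187 were called higher (2.32%) and 248 lower (3.07%), and the median ratio over all genes was 0.993 in WT and 1.03 in Wls iΔBmx. These shares are the background for the counts of each gene list below. Of the 20 genes of the sinusoidal list, Stab2 was left out as part of the rule and 13 had enough UMIs. Of these 13, 11 were called higher and 0 lower, with a median ratio of 3.94 and 3.54. The list was drawn up with earlier results of these data known, and its direction is no independent evidence.

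The remaining sinusoidal genes fell into receptors, secreted proteins and regulators. Flt4, the receptor for VEGF-C, stood at 685 CPM in WT and 453 in Wls iΔBmx, against 125 and 137 in Stab2-0 cells, with ratios of 5.48 (4.36 to 6.87) in WT and 3.3 (2.38 to 4.5) in Wls iΔBmx. Gpr182, an endothelial receptor that scavenges chemokines, had ratios of 3.55 (2.69 to 4.65) in WT and 3.54 (2.47 to 4.98) in Wls iΔBmx. Dab2, the adaptor that couples scavenger receptors to clathrin, stood at 504 CPM in WT and 551 in Wls iΔBmx, against 128 and 97.3 in Stab2-0 cells. All 3 had intervals that did not reach those of the Stab2-0 cells in either library. The protease gene Adamts5 differed most among secreted products, with 252 CPM in WT and 196 in Wls iΔBmx, against 16.7 and 27 in Stab2-0 cells. F8, coagulation factor VIII, rested on 20 and 8 UMIs and had ratios of 3.9 (2.19 to 6.71) in WT and 3.49 (1.39 to 7.76) in Wls iΔBmx. Tfpi, the inhibitor of tissue factor, had ratios of 2.61 and 3.21, and the cytokine receptor subunit Il6st had 2.04 and 2.09. The transcription factor gene Maf stood at 367 CPM in WT and 311 in Wls iΔBmx, against 62.7 and 50.6 in Stab2-0 cells.

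Plvap, the diaphragm protein of fenestrae and caveolae, and Lyve1, a second hyaluronan receptor, passed the UMI limit without a call. Plvap stood at 1763 CPM in WT and 1831 in Wls iΔBmx, against 1060 and 1186 in Stab2-0 cells, and after thinning each cell to 1000 UMIs it had a UMI in 78.3% and 79.2% of Stab2-positive cells against 60.2% and 65.8% of Stab2-0 cells. Lyve1 had 0 UMIs in Stab2-positive cells of both libraries, against 12.5 and 59.2 CPM in Stab2-0 cells, and the 0 counts, read as 3 UMIs, allow ratios of up to 1.31 and 0.45. Markers that are prominent in liver sinusoids were sparse and did not pass the UMI limit, so they were not compared with Stab2-0 cells. Gata4, Clec4g and Fcgr2b had no UMI in Stab2-positive cells, Clec1b had 1 and 3, Dnase1l3 had 1 and 2, and Oit3 had 10 and 3.

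The share of cells with a UMI depends on depth, and free RNA in the suspension can add UMIs to any cell. Each cell was therefore also thinned at random to 1000 UMIs, which left out 1 of 47 WT and 0 of 24 Wls iΔBmx Stab2-positive cells. Before thinning, Stab1 had a UMI in 93.6% and 100% of Stab2-positive cells and in 37% and 41.3% of Stab2-0 cells. After thinning these shares were 63% and 66.7% against 20% and 18.2%. Chondrocyte-like cells, which should lack the gene, gave a background of 0.156% and 0.0463% at median depths of 2891 and 2898 UMIs.

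Vcam1 and Mrc1 were found less widely than Stab1. Vcam1 had a UMI in 63.8% (interval 48.5 to 77.3%) of Stab2-positive cells in WT and in 75% (53.3 to 90.2%) in Wls iΔBmx, against 7.14% and 6.84% of Stab2-0 cells and 2.41% and 3.57% of chondrocyte-like cells. Mrc1 had one in 53.2% and 45.8%, against 3.36% and 3.16% of Stab2-0 cells. In chondrocyte-like cells it had one in 0.0389% in WT and in 0 of 4315 in Wls iΔBmx, which allows up to 0.0695%. The shares in Stab2-positive cells exceeded the background in each case.

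**Figure D2:**
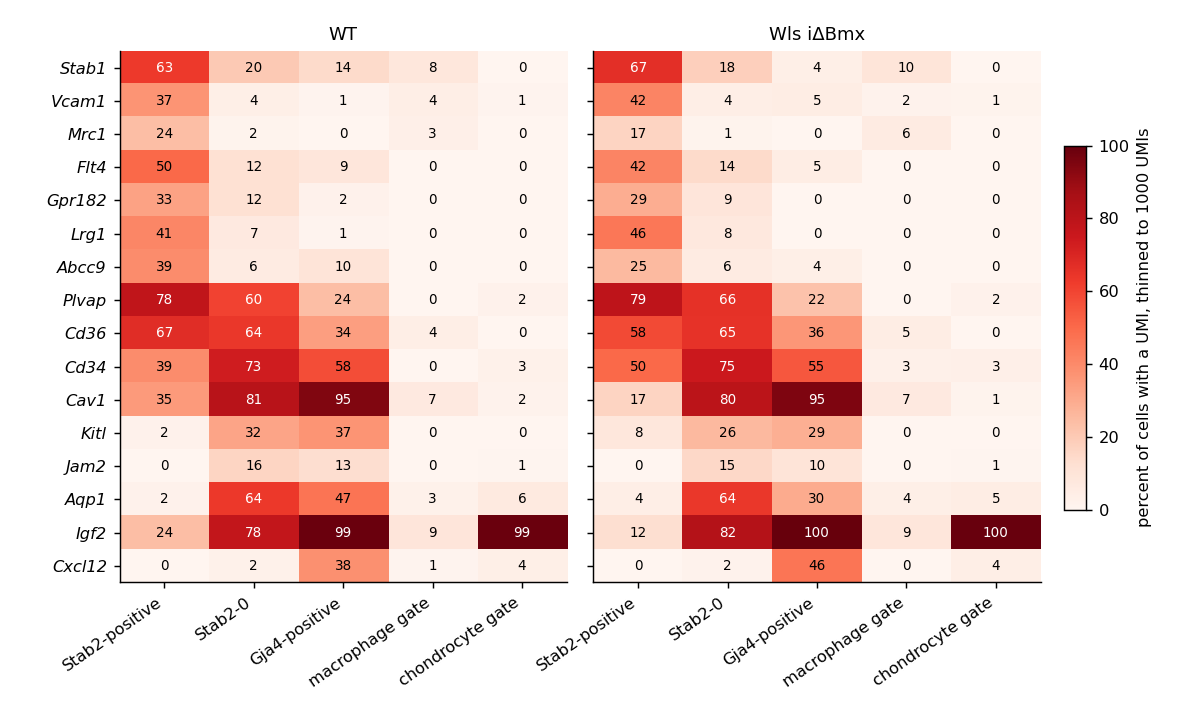
Percent of cells with at least 1 UMI of each gene after thinning every cell to 1000 UMIs, in 5 groups of cells of the WT library (left) and the Wls iΔBmx library (right), where a darker red is a larger share. Stab1 marks most Stab2-positive cells, whereas Igf2, Cav1, Aqp1 and Kitl are found in fewer Stab2-positive cells than in Stab2-0 or Gja4-positive cells.

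The gene that ranked first was Madcam1, a ligand of leukocyte integrins. It had 19 and 22 UMIs, in 10 and 8 Stab2-positive cells, and stood at 104 CPM in WT and 196 in Wls iΔBmx, against 2.99 and 11.2 in Stab2-0 cells. Its ratios of 34.8 (12.6 to 119) in WT and 17.5 (8.87 to 35.1) in Wls iΔBmx have wide intervals, since only 5 and 17 UMIs lay in the Stab2-0 cells. In the order of the smaller of the 2 ratios, the genes after it included Mrc1, Vcam1, Mum1l1, Slc39a8, Adamts5, Gpm6a, Abcc9, Il13ra2, Clca1, Lrg1, Maf, Lpl and Cd55. The 15 highest genes had ratios from 5.6 to 34.8 in WT and from 6.14 to 18 in Wls iΔBmx. Some gate cells also held markers of cartilage, stroma, blood, lymphatic or mural cells, 3 of them Stab2-positive in WT and 0 in Wls iΔBmx. With these mixed cells left out, the lowest of the 15 ratios were 5.27 (Lpl) in WT and 5.36 (Lrg1) in Wls iΔBmx.

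Transporters and channel subunits stood beside receptors among these 15. The metal ion transporter gene Slc39a8 stood at 307 CPM in WT and 284 in Wls iΔBmx, against 40.6 and 36.2 in Stab2-0 cells. Abcc9, the sulphonylurea receptor subunit of potassium channels, stood at 542 CPM in WT and 587 in Wls iΔBmx, against 80.1 and 74.3 in Stab2-0 cells. In both genes each library gave a difference of more than 6-fold. Lrg1, a secreted glycoprotein of venules, had ratios of 7.4 and 6.22, and Lpl, the lipase that clears triglycerides from plasma lipoproteins, had 5.78 and 6.62. Gpm6a, a membrane glycoprotein best known from neurons, had 10.7 and 7.14, Il13ra2, the decoy receptor for interleukin 13, had 9.16 and 6.76, and Cd55, which protects cells from complement, had 5.6 and 6.99. Mum1l1 rested on 17 and 12 UMIs. Clca1, an older name of Clca3a1, has close copies in the genome between which its reads could be split.

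**Figure D3:**
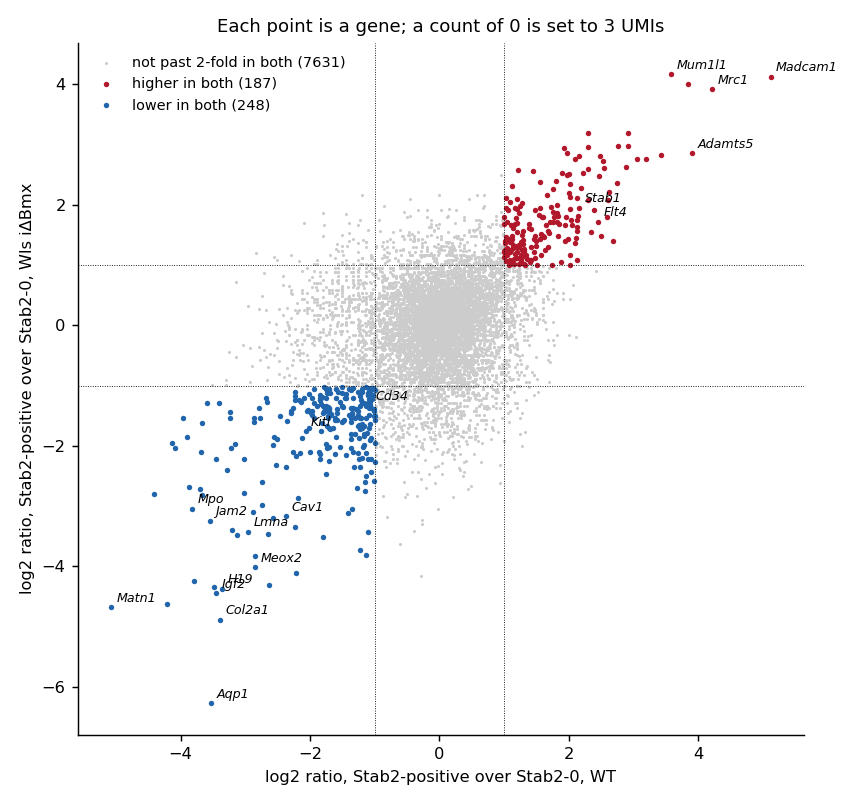
Log2 ratio of the level in Stab2-positive cells to that in Stab2-0 cells, in WT (horizontal) and in Wls iΔBmx (vertical), for the 8066 genes with enough UMIs, where dotted lines mark a 2-fold difference. The 187 genes in red were higher and the 248 in blue lower in both libraries, with Madcam1, Mrc1 and Mum1l1 at the upper end and Aqp1, Matn1 and Col2a1 at the lower end, and a count of 0 is drawn as 3 UMIs.

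Scavenging and lysosomal genes were in part called higher, and most gave no call. Of the 28 genes of this list 21 passed the UMI limit, of which 6 were called higher, 1 lower and 14 neither, with median ratios of 1.47 and 1.4. Over all genes, 2.32% were called higher and 3.07% lower. The summed level of the list was 1.36-fold (1.29 to 1.44) that of Stab2-0 cells in WT and 1.27-fold (1.18 to 1.37) in Wls iΔBmx. The 6 were Stab1, Mrc1 and Dab2 together with the lysosomal proteases Lgmn, Ctsb and Ctsd. Legumain (Lgmn) stood at 153 CPM in WT and 151 in Wls iΔBmx, against 31.1 and 16.4 in Stab2-0 cells, and cathepsin B (Ctsb) at 1183 CPM in WT and 1191 in Wls iΔBmx, against 535 and 489 in Stab2-0 cells. Cathepsin Z (Ctsz) went the other way, at 93.1 CPM in WT and 116 in Wls iΔBmx, against 228 and 303 in Stab2-0 cells. Lamp1, Lamp2, Psap, Ctsl and Grn, which are general lysosomal genes, were called in neither direction. The fatty acid receptor Cd36, called in neither direction, stood at 947 CPM in WT and 933 in Wls iΔBmx, against 1849.9 and 1832 in Stab2-0 cells.

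Adhesion and homing genes gave calls in both directions. Of 20 past the UMI limit, 5 were called higher (the leukocyte ligands Vcam1, Madcam1 and Selp and the chemokine receptors Ackr2 and Darc), 3 lower (Jam2, Cd34 and Podxl) and 12 neither, with medians of 1.04 and 1.18. P-selectin (Selp), which captures rolling leukocytes, stood at 197 CPM in WT and 222 in Wls iΔBmx, against 52 and 28.9 in Stab2-0 cells. Darc, the older name of Ackr1, is the atypical chemokine receptor of venules and stood at 164 CPM in WT and 169 in Wls iΔBmx, against 33.5 and 21.7 in Stab2-0 cells. Selp had ratios of 3.79 (2.5 to 5.65) in WT and 7.68 (4.5 to 12.8) in Wls iΔBmx, and Darc of 4.91 (3.04 to 7.78) in WT and 7.78 (4.18 to 14.1) in Wls iΔBmx. The junction gene Jam2 had 0 UMIs in WT and 2 in Wls iΔBmx against 321 and 256 in the Stab2-0 cells. It was at least 11.7-fold lower in WT, counting the 0 as 3 UMIs, and had a ratio of 0.106 (0.0127 to 0.385) in Wls iΔBmx. Cd34 stood at 706 CPM in WT and 622 in Wls iΔBmx, against 1483 and 1557 in Stab2-0 cells. E-selectin (Sele), Icam2, Cldn5, Esam and the integrin genes of the list were called in neither direction.

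Venous genes were higher or gave no call. All 8 of the list passed the UMI limit, and 4 were called higher (Nr2f2, Selp, Lrg1 and Darc) and 0 lower, with medians of 2.3 and 2.48. Nr2f2, the transcription factor that sets venous identity, stood at 756 CPM in WT and 809 in Wls iΔBmx, against 284 and 266 in Stab2-0 cells. It had a UMI in 40 of 47 and 22 of 24 cells, against 1.25% and 1.44% of chondrocyte-like cells. Nrp2 and Emcn lay at the limit, with ratios of 1.97 and 1.82 for Nrp2 and 1.99 and 2.03 for Emcn. The von Willebrand factor gene Vwf stood at 54.8 CPM in WT and 44.4 in Wls iΔBmx, against 63.9 and 82.2 in Stab2-0 cells. Of the 7 lymphatic genes 3 passed the limit, and Flt4 and Mmrn1 were called higher. Mmrn1, a carrier of factor V, stood at 274 CPM in WT and 284 in Wls iΔBmx, against 62.1 and 80.9 in Stab2-0 cells. The genes that define lymphatic endothelium, Prox1, Lyve1, Ccl21a and Reln, had 0 UMIs in the Stab2-positive cells of both libraries.

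Arterial genes were lower or gave no call. Of 14 listed, 11 passed the UMI limit, of which 3 were called lower (Sox17, Cav1 and Mecom) and 0 higher, with medians of 0.308 and 0.52 (counts of 0 as 3 UMIs) or 0.296 and 0.369 (as 0). Bmx, Gja5, Hey1 and Sema3g had no UMI in Stab2-positive cells. Sox17, a transcription factor of arteries, stood at 27.4 CPM in WT and 35.6 in Wls iΔBmx, against 89 and 94.7 in Stab2-0 cells, and rested on 5 and 4 UMIs. The elastic fibre gene Fbln5 was the exception by level, at 219 CPM in WT and 276 in Wls iΔBmx, against 153 and 171 in Stab2-0 cells. Ly6c1 stood at 126 CPM in WT and 196 in Wls iΔBmx, against 416 and 377 in Stab2-0 cells.

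Genes of caveolae and fenestrae were called lower or in neither direction. Of 11 genes past the limit 5 were called lower (Cav1, Cav2, Ptrf, Ehd2 and Fabp5) and 0 higher, with medians of 0.512 and 0.51. Caveolin-1 (Cav1), the coat protein of caveolae, had 96 and 34 UMIs and stood at 526 CPM in WT and 302 in Wls iΔBmx, against 2723 and 2704 in Stab2-0 cells. A single WT cell held 35 of the 96 UMIs. Cavin-1, listed as Ptrf, shapes the same pits and stood at 444 CPM in WT and 382 in Wls iΔBmx, against 1335 and 1376 in Stab2-0 cells, and the caveolar ATPase Ehd2 had ratios of 0.466 and 0.46. The lipid carrier Fabp5 stood at 137 CPM in WT and 62.2 in Wls iΔBmx, against 313 and 285 in Stab2-0 cells. All 5 lay below the Stab2-0 cells in both libraries, while Gpihbp1 and Fabp4 were called in neither direction. Plvap, also of this list, stood higher without a call, at 1763 and 1831 CPM against 1060 and 1186 in Stab2-0 cells.

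Capillary and basement membrane genes were called lower or in neither direction. Of 14 capillary and tip genes past the limit 2 were called lower, Col15a1 and Kcne3, and 0 higher, with medians of 1.01 and 0.856. Over all genes, 3.07% were called lower. The collagen gene Col15a1 stood at 575 CPM in WT and 542 in Wls iΔBmx, against 2096 and 2324 in Stab2-0 cells. Of 14 basement membrane genes only Sparcl1 was called, at 646 CPM in WT and 356 in Wls iΔBmx, against 1523 and 1659 in Stab2-0 cells, and the other 13, among them Col4a1, Col4a2 and Lama4, were called in neither direction. The summed level of this list was 1.03-fold and 0.899-fold that of Stab2-0 cells.

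Ligands that act on blood progenitors mostly gave no call. Of 25 niche genes 17 passed the UMI limit, of which 2 were called higher (Tgfb1 and Bmp4), 2 lower (Kitl and Igf2) and 13 neither, with medians of 1.06 and 0.654. Over all genes, 2.32% were called higher and 3.07% lower. Stem cell factor (Kitl), which blood stem cells need for their upkeep, had 16 and 11 UMIs and stood at 87.6 CPM in WT and 97.8 in Wls iΔBmx, against 367 and 329 in Stab2-0 cells, with ratios of 0.238 (0.135 to 0.39) in WT and 0.297 (0.147 to 0.537) in Wls iΔBmx. In the cells with at least 2 Stab2 UMIs, which held 3 and 2 Kitl UMIs, the ratios were 0.0871 and 0.123, and after thinning they were 0.0516 and 0.383. Cxcl12, the chemokine that retains stem cells in the marrow, had 0 UMIs in the Stab2-positive cells of both libraries, against 38.2 and 40.8 in Stab2-0 cells and 908 and 1124 in Gja4-positive cells. Read as 3 UMIs, a 0 count in Stab2-positive cells corresponds to 16.4 and 26.7 CPM. Tgfb1 rested on 8 and 9 UMIs and Bmp4 on 7 and 5. The ratios were 2.04 (0.818 to 4.46) in WT and 4.34 (1.8 to 9.47) in Wls iΔBmx for Tgfb1 and 2.79 (1.01 to 6.71) in WT and 2.82 (0.839 to 7.53) in Wls iΔBmx for Bmp4. The interval of Tgfb1 in WT and that of Bmp4 in Wls iΔBmx included 1.

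Igf2 and the neighbouring long noncoding RNA H19, an imprinted pair on chromosome 7 that is abundant in fetal tissue, were among the lowest genes. Igf2 stood at 509 CPM in WT and 302 in Wls iΔBmx, against 5558 and 6594 in Stab2-0 cells, and H19 at 827 CPM in WT and 471 in Wls iΔBmx, against 8479.7 and 9719.7 in Stab2-0 cells. In Gja4-positive cells the levels were 14163 and 18469.7 for Igf2 and 26802 and 34518 for H19. The order was thus Gja4-positive, Stab2-0 and Stab2-positive in both libraries, with no overlap of the counting intervals. Both genes were also abundant in chondrocyte-like cells, at 15529 and 18773 for Igf2 and 31180.2 and 34433 for H19. In the cells with at least 2 Stab2 UMIs the ratios to Stab2-0 cells were 0.025 and 0.0185 for Igf2 and 0.0101 and 0.0459 for H19. Igf2 had a UMI in 38.3% and 45.8% of Stab2-positive cells, and in 25.4% and 30.8% of macrophage-like cells (5 or more UMIs of C1qa, C1qb, C1qc and Csf1r and none of the endothelial genes), whose median depth was 7543.5 and 8070.5 UMIs. After thinning to 1000 UMIs the shares were 23.9% and 12.5% against 9.32% and 8.65%.

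The other lowest genes included several of cartilage and blood. In order they were Matn1, Col9a2, Col11a1, Aqp1, Col9a1, Igf2, Col2a1, H19, Jam2, C1qtnf9, Mgll, Mpo, Lmna, Fbn1 and Meox2. All 7 chondrocyte genes were called lower, and their summed level was 405 and 124 CPM in Stab2-positive cells against 4011 and 3074 in Stab2-0 cells, where a single cell held up to 1197 UMIs. The mixed cells were chosen by markers of cartilage and blood among others, so a fall of such genes in Stab2-0 cells follows from their removal. Without them the intervals of Col9a2, Col11a1, Col9a1 and matrilin (Matn1) included 1 in both libraries. That of Col2a1 included 1 in WT but not in Wls iΔBmx. Matn1 then had ratios of 0.767 (0.087 to 3.16) and 0.568 (0.0137 to 3.57), and Col2a1 of 0.731 (0.39 to 1.27) and 0.445 (0.19 to 0.895). Mpo, an enzyme of granulocytes, had 0 UMIs in Stab2-positive cells, and its 390 and 333 UMIs in Stab2-0 cells became 1 and 0 without the mixed cells.

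Of these 15, Aqp1, Igf2, H19, Jam2, C1qtnf9, Mgll, Lmna, Fbn1 and Meox2 remained below Stab2-0 cells without the mixed cells, as did Kitl. Their intervals lay below 1 in both libraries. Without those cells the water channel gene Aqp1 had ratios of 0.0779 and 0.0116, Igf2 of 0.0521 and 0.0478 and H19 of 0.0561 and 0.0519. Those of Kitl were 0.216 and 0.255, of Meox2 0.128 and 0.0571, of Lmna 0.0987 and 0.0849, of Mgll 0.0827 and 0.0804, and of Fbn1 0.0866 and 0.137. Over all cells, Aqp1 stood at 214 CPM in WT and 35.6 in Wls iΔBmx, against 2458 and 2746 in Stab2-0 cells, and 37 of its 39 UMIs in WT lay in 1 cell. Meox2, a homeobox gene of vascular cells, stood at 38.3 CPM in WT and 17.8 in Wls iΔBmx, against 277 and 286 in Stab2-0 cells. The nuclear lamina gene Lmna stood at 49.3 CPM in WT and 35.6 in Wls iΔBmx, against 382 and 381 in Stab2-0 cells, and the lipase gene Mgll at 27.4 CPM in WT and 26.7 in Wls iΔBmx, against 240.2 and 295 in Stab2-0 cells. The microfibril gene Fbn1, with 5 and 2 UMIs, had ratios of 0.136 and 0.117. C1qtnf9, a secreted relative of adiponectin, had 5 UMIs in 1 WT cell and 0 in Wls iΔBmx, where it was at least 10.5-fold lower, counting the 0 as 3 UMIs.

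Markers of macrophages were checked because sinusoidal cells share scavenger receptors with them. Of the 14 marker genes described here, 12 had 0 UMIs in the Stab2-positive cells of each library, among them C1qa, C1qb, C1qc, Emr1 (F4/80), Ptprc (CD45), Lyz2 and Cd163. The Fc receptor subunit gene Fcer1g had 7 and 5 UMIs and stood at 38.3 CPM in WT and 44.4 in Wls iΔBmx, against 46 and 40.8 in Stab2-0 cells. Csf1r, the receptor for macrophage colony-stimulating factor, had 1 UMI in WT, and the lysosomal marker Cd68 had 1 in Wls iΔBmx. No Stab2-positive cell was removed when gate cells with 2 or more macrophage UMIs were left out. Of the 8 mural genes, Abcc9 was called higher, and Rgs5, Pdgfrb, Acta2, Notch3 and Myh11 had 0 UMIs in Stab2-positive cells. In all, 5 of the 8 had 0 UMIs in WT and 6 in Wls iΔBmx. The remaining Kcnj8 and Cspg4 thus held UMIs in WT.

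Markers of other blood and bone cells were sparse. The 9 granulocyte and progenitor genes summed to 16.4 and 0 CPM in Stab2-positive cells, against 497 and 446 in Stab2-0 cells. The 7 megakaryocyte genes summed to 32.9 and 35.6, the 7 osteoclast genes to 11 and 26.7, and the 9 erythroid genes to 93.1 and 53.3. Stromal genes differed between the libraries, with a summed level of 958 in WT and 231 in Wls iΔBmx. Of the 3 stromal collagens, 61 of the 71 Col1a1 UMIs, 52 of the 64 Col1a2 UMIs and 27 of the 30 Col3a1 UMIs of WT lay in 1 and the same cell. That cell held 1 Stab2 UMI.

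Receptors of the angiogenic and BMP pathways gave few calls. Of 8 angiogenic receptors only Flt4 was called, and the neuropilins, Tek, Tie1, Robo4, Ptprb and Flt1 were not. Their medians were 1.45 and 1.27. None of 10 BMP and TGF-beta genes was called, with medians of 1.07 and 1.02, and none of 5 flow-response genes, among them Klf2, Klf4 and Nos3. Of 13 coagulation genes, Tfpi, F8 and Tfpi2 were called higher and Gas6 lower. Tfpi2, an inhibitor of plasmin and other proteases, stood at 279 CPM in WT and 551 in Wls iΔBmx, against 74.7 and 95.4 in Stab2-0 cells. Gas6, the ligand of the Axl receptor, rested on 7 and 2 UMIs and stood at 38.3 CPM in WT and 17.8 in Wls iΔBmx, against 89.6 and 90.1 in Stab2-0 cells.

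Wnt pathway genes were examined because Wnt secretion was the target in the Wls iΔBmx embryos. Of 23 genes 9 passed the UMI limit, and Tcf7l1, a repressor of Wnt targets, was called higher at 394 CPM in WT and 382 in Wls iΔBmx, against 195 and 160.5 in Stab2-0 cells. The receptors Fzd4, Fzd6, Lrp5 and Lrp6 were called in neither direction, and the medians of the list were 1.33 and 1.56. The target gene Axin2 had 0 UMIs in the Stab2-positive cells of both libraries, as had Apcdd1, Notum, Rnf43 and Znrf3, while Lef1 had 0 and 2. Of the 16 Wnt ligand genes in the files, the Stab2-positive cells held 1 UMI in WT and 0 in Wls iΔBmx, so ligand levels could not be compared at this depth.

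Genes of the cell cycle were called lower or in neither direction. All 19 passed the UMI limit, and 3 were called lower (Ccnb1, Ccnb2 and Ube2c) and 0 higher, with medians of 0.661 and 0.681. Over all genes, 3.07% were called lower. The summed level of the list was 0.726-fold (0.654 to 0.804) that of Stab2-0 cells in WT and 0.700-fold (0.614 to 0.795) in Wls iΔBmx. At least 3 UMIs of Mki67, Top2a, Cdk1, Birc5, Ube2c and Tpx2 were found in 13 of 47 (27.7%, interval 15.6 to 42.6%) and 8 of 24 (33.3%, 15.6 to 55.3%) Stab2-positive cells, against 37% and 39.2% of Stab2-0 cells. After thinning to 1000 UMIs the shares were 8.7% (2.42 to 20.8%) and 16.7% (4.74 to 37.4%) against 21.7% and 23.3%. The value of the Stab2-0 cells lay inside the interval in both libraries before thinning and in Wls iΔBmx after it, but above the interval in WT after it. Of the 11 genes raised by tissue dissociation Egr1 and Hspa1b were called lower, and of 8 interferon and antigen presentation genes none was called. The class II genes Cd74, H2-Aa, H2-Ab1 and H2-Eb1 were below the UMI limit.

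Levels were also taken apart by the number of Stab2 UMIs in the cell. In WT, Stab1 stood at 223 CPM in cells with 0 Stab2 UMIs, at 720.1 (555 to 919.5) in the 24 cells with 1 and at 1259 (1042 to 1508) in the 23 cells with 2 or more. In Wls iΔBmx these levels were 215, 759 (559.8 to 1007) and 933 (683 to 1245), with 13 and 11 cells above 0. The intervals for 1 and for 2 or more did not overlap in WT and overlapped in Wls iΔBmx. Stab2 is part of the rule, so these values are a description. Gpr182, an atypical chemokine receptor of sinusoids, stood at 383 and 448 in WT and at 316 and 467 in Wls iΔBmx for 1 and for 2 or more, with overlapping intervals in both libraries. Madcam1 stood at 124 and 85.3 in WT and at 127 and 284 in Wls iΔBmx, again with overlapping intervals.

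Igf2 and Cav1, which were low in Stab2-positive cells, were split in the same way. Igf2 stood at 5558, 900.1 and 139 CPM in WT cells with 0, 1 and 2 or more Stab2 UMIs, and at 6594, 443 and 122 in Wls iΔBmx. Single cells with 1 Stab2 UMI held 31 of the 80 Igf2 UMIs behind the second WT value and 14 of the 28 behind that of Wls iΔBmx, and without them the levels were 591 (437 to 781) and 262 (143 to 439.5). Cav1 stood at 2723, 821 and 245 in WT and at 2704, 364 and 223 in Wls iΔBmx. A single cell held 35 of the 73 Cav1 UMIs of WT cells with 1 Stab2 UMI, without which the level was 456 (323 to 626), against an interval of 156 to 368 for 2 or more. In Wls iΔBmx the Cav1 intervals for 1 (231 to 546) and for 2 or more (111 to 399) overlapped. Cd36 stood at 844 and 1046 for 1 and for 2 or more in WT, and at 981 and 872 in Wls iΔBmx. The order thus differed between the libraries, and the intervals overlapped in both. Median depth differed between these cells, at 2982.5 UMIs for 1 and 4138 for 2 or more in WT and 3716 and 4277 in Wls iΔBmx.

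**Figure D4:**
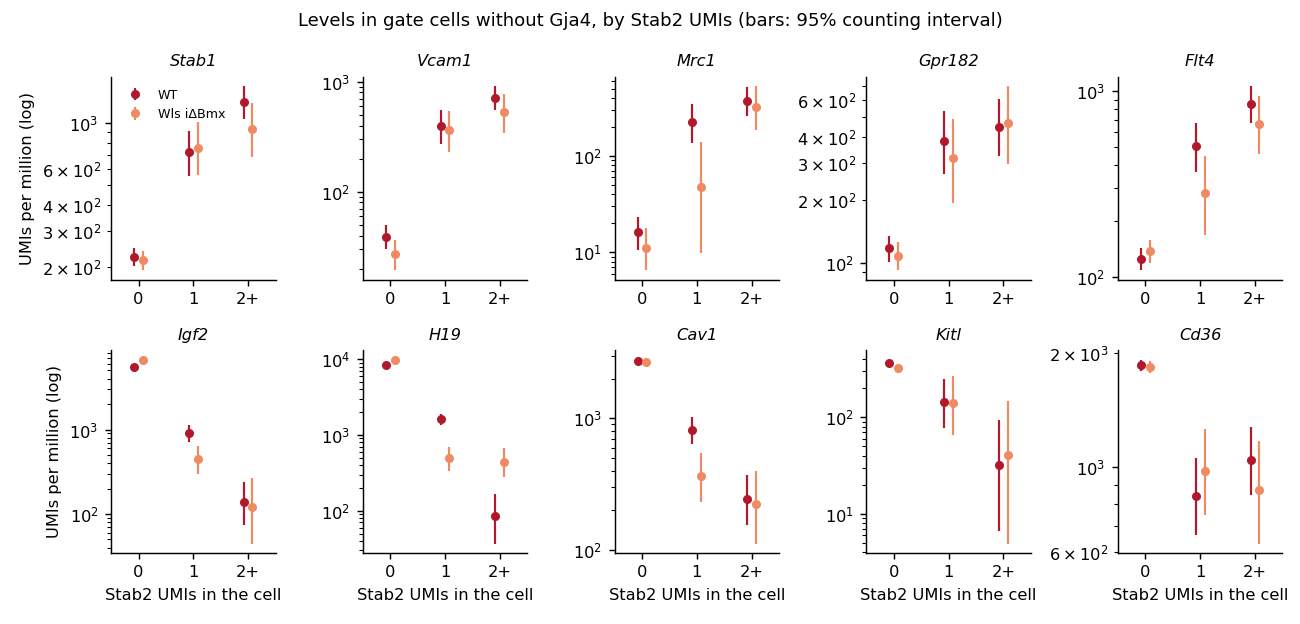
Levels in CPM (log scale) of 10 genes in gate cells without Gja4, by the number of Stab2 UMIs in the cell (0, 1, 2 or more), for WT (dark red) and Wls iΔBmx (orange), with bars for 95% Poisson intervals. Stab1, Vcam1, Mrc1, Gpr182 and Flt4 stand higher in cells with Stab2 UMIs, and Igf2, H19, Cav1 and Kitl stand lower.

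Between the libraries, Stab2-positive cells differed by 2-fold or more in few genes. Of 2034 genes with at least 30 UMIs over the Stab2-positive cells of both libraries, 36 (1.77%) were at least 2-fold higher and 47 (2.31%) at least 2-fold lower in Wls iΔBmx, and the median ratio was 1.0. Of the sinusoidal, scavenging, adhesion, venous, niche and coagulation lists, 11, 17, 13, 7, 4 and 7 genes had enough UMIs, and 0 of these were past 2-fold in either direction. The other genes of these lists were not compared. With 1.77% and 2.31% of all genes past 2-fold, 0 in lists this short is no result about them. In other lists, 1 of 7 BMP and TGF-beta genes and 1 of 6 genes raised by tissue dissociation were at least 2-fold higher. At least 2-fold lower were 1 of 10 caveolar genes, 1 of 5 Wnt pathway genes, all 3 stromal genes and the 1 chondrocyte gene compared. The sinusoidal list, without Stab2, summed to 6818 CPM in WT and 6177 in Wls iΔBmx, a ratio of 0.906 (0.825 to 0.995). Single ratios were 0.838 (0.646 to 1.08) for Stab1, 0.78 (0.543 to 1.11) for Vcam1, 0.561 (0.314 to 0.96) for Mrc1 and 0.662 (0.468 to 0.924) for Flt4. Of these 4 genes, Mrc1 and Flt4 had intervals that excluded 1. In Stab2-0 cells the ratio was 0.693 (0.354 to 1.32) for Mrc1 and 1.1 (0.904 to 1.34) for Flt4.

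In Stab2-positive cells the 8 genes with the largest ratios were Psma6, Eif4a3, Cyr61, Rps3a1, Tecr, Calcrl, Gap43 and Aes. Calcrl, the receptor for adrenomedullin, stood at 76.7 CPM in WT and 231 in Wls iΔBmx, from 14 and 26 UMIs in 12 and 14 cells, a ratio of 3.01 (1.52 to 6.25). In Stab2-0 cells the ratio was 1.08 (0.872 to 1.33). Cyr61 (Ccn1), a matricellular protein induced by YAP, stood at 76.7 and 240, and 10 of its 27 UMIs in Wls iΔBmx lay in 1 cell. The proteasome subunit gene Psma6 stood at 60.2 and 196, with ratios of 3.25 in Stab2-positive and 0.951 in Stab2-0 cells. Gap43 had 13 of its 36 UMIs, and Rps3a1 14 of its 59, in 1 Wls iΔBmx cell, and Rps3a1 has near-identical pseudogenes that may share its reads. It was also higher in Stab2-0 cells, with a ratio of 1.62.

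The 8 genes with the smallest ratios were Dlk1, Aqp1, Gxylt1, Col1a2, Col3a1, Itm2a, Col1a1 and Peli1, and single WT cells carried 5 of them. Dlk1 stood at 350.5 CPM in WT and 35.6 in Wls iΔBmx, and 44 of its 64 UMIs in WT lay in the cell that also held the stromal collagens. Without the mixed cells, Dlk1 had 2 UMIs in WT and 4 in Wls iΔBmx. The ratios of Col1a1, Col1a2 and Itm2a then stood at 1.99 (0.771 to 5.36), 1.09 (0.38 to 2.97) and 1.5 (0.40 to 5.59), on the other side of 1. The difference in Aqp1 came from the 1 WT cell with 37 UMIs, which was not among the mixed cells.

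Gxylt1 and Peli1 were spread over many cells. Gxylt1, a xylosyltransferase that modifies Notch receptors, had 28 UMIs in 17 WT cells and 3 in 3 Wls iΔBmx cells, a ratio of 0.174 (0.0338 to 0.563) against 0.997 in Stab2-0 cells. Peli1, a ubiquitin ligase of innate immune signalling, had 43 UMIs in 27 cells and 8 in 8 cells, a ratio of 0.302 (0.123 to 0.65) against 1.09. Of the 5 genes of the Wnt pathway list with enough UMIs, Ctnnb1, which encodes beta-catenin, was past 2-fold, at 257 CPM (47 UMIs in 25 cells) in WT and 80 (9 UMIs in 7 cells) in Wls iΔBmx, a ratio of 0.311 (0.134 to 0.642). In Stab2-0 cells its ratio was 0.759 (0.644 to 0.894). The share of all genes past 2-fold, 1.77% and 2.31%, is the background for these single genes.

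**Figure D5:**
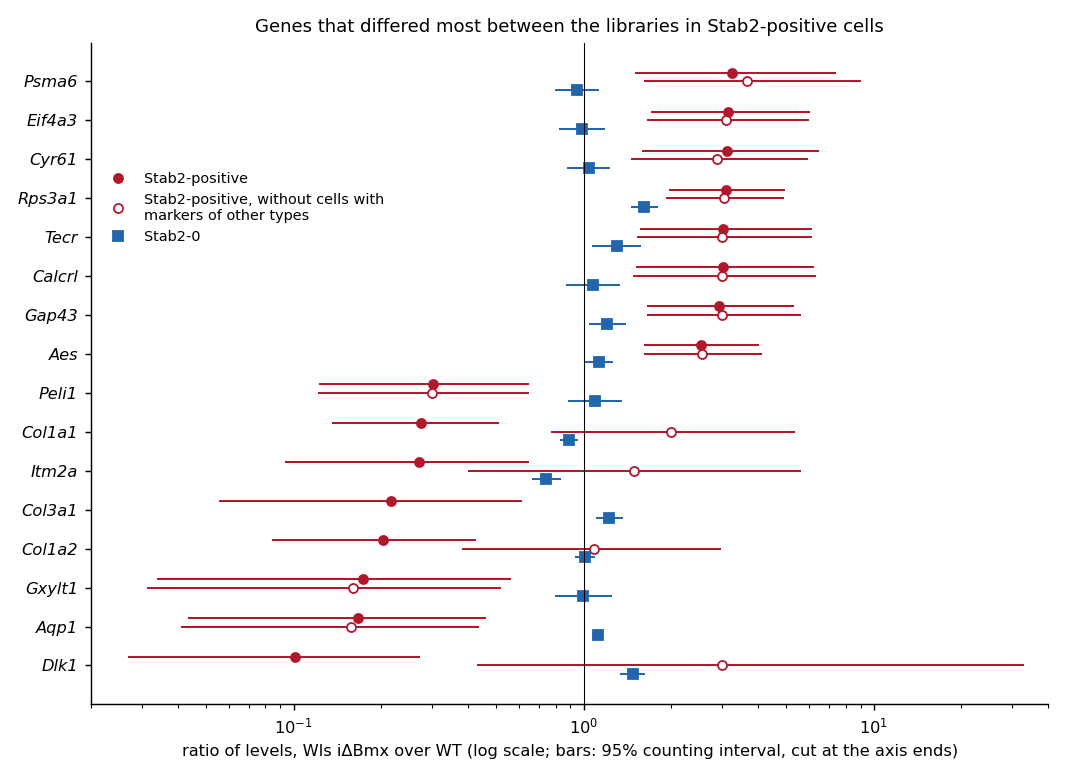
Ratio of the level in Wls iΔBmx to that in WT (log scale) for the 16 genes that differed most in Stab2-positive cells (filled circles), the same without cells that held markers of other cell types (open circles), and in Stab2-0 cells (squares), with bars for 95% counting intervals and no symbol where one side had 0 UMIs. Dlk1, Col1a1, Col1a2 and Itm2a cross 1 without the mixed cells, whereas Gxylt1, Peli1 and Aqp1 stay below it.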

How the data were processed

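Cells of the femurs of E18.5 embryos were captured on the BD Rhapsody whole-transcriptome platform, with 1 WT and 1 Wls iΔBmx library. The deposited files hold counts, whole numbers of UMIs per gene and cell without normalization. For their making the submitters' processing notes name bcl2fastq 2.19.1.403, UMI-tools 1.0.1, STAR 2.7.1a, featureCounts 1.6.4 of Subread and the mm10 build, with no further parameters. How reads that match several genes were treated is not given in the sources used here.

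Cells were kept with over 200 and under 5000 genes and a mitochondrial share below 30%, and were grouped by the UMIs of Cdh5, Pecam1, Kdr, Stab2 and Gja4. UMIs were summed over the cells of a group and expressed per 1000000 UMIs (CPM). Levels were given exact Poisson intervals, shares exact binomial (Clopper-Pearson) intervals and ratios exact conditional binomial intervals, all at 95% and for counting error only. Totals of 182613 and 112512 UMIs in Stab2-positive cells set the limit of a count of 0 (3 UMIs) at 16.4 and 26.7 CPM. A gene needed 20 UMIs in each library to be compared between Stab2-positive and Stab2-0 cells, and 30 UMIs to be compared between libraries. A call needed a ratio of 2 or more, or 0.5 or less, which in the first comparison had to hold in both libraries. With 1 library per genotype there was no test and no p-value. Doublets were kept. Scrublet marked 38 of 5736 WT cells (0.662%) and 0 of 6620 Wls iΔBmx cells, so its threshold did not work in the second library, and the 5% of cells with the highest scores were left out as an alternative instead.

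The genes named were 15 genes from either end of the ranked ratios, ordered by the library nearer to 1, the 8 at each end between the libraries, and the members of 27 gene lists. The cells, the lists and the rules were chosen with earlier results of these data known. Alternatives were a stricter cell filter, a higher endothelial or Stab2 minimum, removal of cells with macrophage UMIs or with markers of other types, means over cells, a total without mitochondrial and haemoglobin genes, thinning to 1000 UMIs, and no UMI minimum. Gene symbols are those of the files, where Darc is Ackr1 and Emr1 is Adgre1. 1 gene that the naming rule selects is not reported here. Promoters came from RefSeq (GRCm38.p6). The work used matplotlib 3.10.9, scanpy 1.11.5, pandas 2.3.3, scipy 1.17.1 and numpy 2.4.6 under Python 3.11.15, and the scripts were tested on simulated data.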

Additional observations from a re-analysis of the deposited data

Results flagged for a closer look

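For 7 genes the difference between the libraries ran one way in Stab2-positive cells and the other way in Stab2-0 cells, in each case with intervals that excluded 1. The difference between the cell groups was not tested in any of them. The ratio of Wls iΔBmx to WT was 0.101 for Dlk1, 0.166 for Aqp1 and 0.216 for Col3a1 in Stab2-positive cells, against 1.47, 1.12 and 1.22 in Stab2-0 cells. A single WT cell held 44 of 64 Dlk1 UMIs and 27 of 30 Col3a1 UMIs, and another held 37 of 39 Aqp1 UMIs. Igf2 had ratios of 0.593 and 1.19, and H19 of 0.57 and 1.15. The first of those WT cells also held 31 of 93 Igf2 UMIs and 55 of 151 H19 UMIs. Without the mixed cells the ratios in Stab2-positive cells were 1.06 (0.662 to 1.68) for Igf2 and 1.07 (0.738 to 1.54) for H19. Both intervals then included 1. Sparcl1, a matricellular protein, had ratios of 0.55 and 1.09. Ier2, an immediate early gene that tissue dissociation raises, had ratios of 2.1 in Stab2-positive and 0.845 in Stab2-0 cells.

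Eif4a3, a core subunit of the exon junction complex, differed from Stab2-0 cells in opposite directions in the 2 libraries, with both intervals excluding 1. Its level in Stab2-positive cells was 1.94-fold that of Stab2-0 cells in Wls iΔBmx and 0.609-fold in WT, again without a test of the difference. It had 33 UMIs in 17 of 24 cells in Wls iΔBmx and 17 UMIs in 12 of 47 cells in WT.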

How the results depend on the processing

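No paired analysis was possible because each genotype had 1 library and no test was run. Across the 9 alternatives that can change a ratio, 518 recomputed values of the 66 ratios in Stab2-positive against Stab2-0 cells stayed within the counting interval, and 72 moved further, 59 of them by over 1.5 times. Of the 72, 21 came with at least 2 Stab2 UMIs, 21 after thinning and 13 without cells with markers of other types, and 16 rested on a count of 0 read as 3 UMIs. None of these values changed direction. The share of Stab2-positive cells in the gate was 3.72% and 2.27% with at least 2 Stab2 UMIs, by construction, and 3.99% and 2.80% after thinning. Genes called higher against Stab2-0 cells numbered 79 after thinning, where 3743 genes passed the limit, and 439 without a UMI minimum, and those called lower numbered 102 after thinning. Between the libraries, 19 genes were called higher and 33 lower with at least 2 Stab2 UMIs, where 901 genes passed the limit and 5 of the 19 were among the 36 and 4 of the 33 among the 47. Genes called higher numbered 56 with means over cells (23 of them among the 36), 7 after thinning (370 genes past the limit, 1 shared) and 1092 without a minimum, and those called lower 17 after thinning (0 shared) and 944 without a minimum. The ratios of 5 genes between the libraries changed direction. With the stricter cell filter Col3a1 became 1.97 and Col1a1 1.77. Without the highest Scrublet scores Dlk1 became 3.07, Col1a2 1.02, Col3a1 at least 2.05 (0 UMIs in WT, read as 3), Itm2a 1.53 and Col1a1 2.05. With at least 2 Stab2 UMIs Col1a1 became 1.52. Without cells with markers of other types, an alternative chosen after the data were seen, Dlk1 became 2.99, Col1a2 1.09, Col3a1 at least 1.99 (0 UMIs in WT, read as 3), Itm2a 1.495 and Col1a1 1.99, and 162 genes were called higher against Stab2-0 cells, of which 141 were among the 187. The cause was not tested, beyond the single WT cells named above. For 9 combinations of a gene and a setting the counts were too low for a ratio. Depth limits the Stab2-positive cells most, since 3 UMIs there equal 16.4 CPM in WT and 26.7 CPM in Wls iΔBmx.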

Other observations

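Beyond the lists, 153 further genes were called higher and 203 further genes lower in Stab2-positive cells, and those named here were chosen after their values were seen. Sepp1 (selenoprotein P), the carrier of selenium in plasma, stood at 3937 CPM in WT and 3591 in Wls iΔBmx, against 1114 and 903 in Stab2-0 cells. Tcn2, the vitamin B12 carrier transcobalamin, stood at 553 CPM in WT and 409 in Wls iΔBmx, against 169.7 and 125 in Stab2-0 cells, and Fcgrt, the receptor that recycles IgG and albumin, at 444 CPM in WT and 444 in Wls iΔBmx, against 109 and 101 in Stab2-0 cells. In each of these genes both libraries gave a difference of over 3-fold. Hmox1, the enzyme that degrades haem, rested on 21 and 13 UMIs and had ratios of 3.85 (2.2 to 6.53) in WT and 3.19 (1.6 to 5.92) in Wls iΔBmx. Npnt, an integrin ligand of the extracellular matrix, had ratios of 6.17 (4.96 to 7.64) in WT and 4.63 (3.49 to 6.08) in Wls iΔBmx. The nuclear receptor gene Pparg stood at 329 CPM in WT and 418 in Wls iΔBmx, against 81.9 and 91.4 in Stab2-0 cells, and Xbp1, a regulator of secretory capacity, at 580.5 CPM in WT and 675 in Wls iΔBmx, against 238 and 264 in Stab2-0 cells.

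Of the lower genes, vimentin (Vim), an intermediate filament protein, stood at 2136 CPM in WT and 2213 in Wls iΔBmx, against 6694 and 7213 in Stab2-0 cells, and Igfbp7, an insulin-like growth factor binding protein of vessels, at 663 CPM in WT and 809 in Wls iΔBmx, against 1977 and 2387 in Stab2-0 cells. The S100 gene S100a6 rested on 8 and 6 UMIs with ratios of 0.15 and 0.166, and S100a10 had ratios of 0.347 and 0.417. Cdh13, a cadherin anchored by a lipid tail, had ratios of 0.28 and 0.297 from 20 and 14 UMIs. The small heat shock gene Hspb1 had 0 UMIs in the Stab2-positive cells of both libraries, against 72.3 and 64.5 CPM in Stab2-0 cells.

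The sex of the embryos differed between the libraries in the comparison cells as well. Of the Stab2-0 cells, 188 in WT and 52 in Wls iΔBmx held UMIs of Y-linked genes without Xist, and 45 and 158 held Xist without Y-linked genes.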
